A study of Mus musculus with 2 samples.

Results

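The levels of 10 transcription factors of the ovary's hormone-producing cells were compared: *Foxl2*, *Runx1*, *Runx2*, *Wt1*, *Nr2f2*, *Gata4*, *Gata6*, *Nr5a1*, *Nr5a2* and *Nr0b1*. They were chosen by gene symbol, as factors of granulosa, theca and luteal identity, and all 10 were found among the 24421 rows of the deposited count table. The study sequenced ribosomal RNA-depleted total RNA from whole ovaries of C57BL/6J mice at 8 weeks of age, and its title asks which ovarian genes depend on the long noncoding RNA H19. There were 2 libraries, 1 from H19KO mice, whose allele the labels give as H19(Δ3), and 1 from wild-type (WT) mice. That allele is known as a deletion of the transcribed part of H19. The labels give neither the zygosity nor how many animals were pooled. The stage of the oestrous cycle is not among the sample details used here, and its part in the differences was not tested. Since each genotype is represented by 1 library, the differences have no replication behind them, p-values are not given, and every comparison describes these libraries, not the genotypes.

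Granulosa cells nourish the oocyte and turn androgens into oestrogens, theca cells around the follicle make those androgens, and after ovulation both are remodelled into the progesterone-making corpus luteum. FOXL2, a forkhead protein, keeps granulosa cells from taking on the fate of Sertoli cells, their counterparts in the testis. The NR5A nuclear receptors, with the zinc finger proteins GATA4 and GATA6, switch on genes of steroid synthesis and of the inhibins. RUNX proteins bind DNA as partners of CBFB and are raised in granulosa cells by the ovulatory surge of luteinising hormone.

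The H19KO library held 23041225 counts and the WT library 23335131. H19 had 0 counts in the H19KO library and 672 in the WT library. Allowing up to 3 counts for a count of 0, its level in the H19KO library was at least 223-fold lower, as the label states. Both libraries held the defining markers of an ovary: of the 15 granulosa, 9 luteal and 10 oocyte markers none was at 0. The theca hormone gene *Insl3* had only 2 counts in the H19KO library and 1 in the WT library, although the other theca markers were well measured. Levels are given as CPM, which are counts scaled for the size and composition of the library. Ratios are log2 values of H19KO over WT, followed by an exact 95% interval that covers counting error only.

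The 10 factors did not move as a block. *Runx1* was about 2-fold higher in the H19KO library, *Nr5a1*, *Gata4*, *Gata6*, *Foxl2* and *Runx2* were lower there at 65.9 to 77.0% of the WT level, and *Wt1*, *Nr2f2* and *Nr5a2* were at 101.1 to 103.0% of it. *Nr0b1* was slightly higher at a low count. All 10 had a mean of at least 1 CPM, the minimum for a gene to be called measured here, and their median log2 ratio was -0.18, against -0.01 over the 13928 measured genes. None of the 10 had an interval wholly beyond 2-fold, where 0.610% of measured genes were higher and 0.388% lower. Beyond 1.5-fold there was 1 factor, *Runx1*, on the higher side, where the background was 1.80%, and none on the lower side, where it was 1.21%. On the looser rule of an interval that leaves out 0, 3 factors were higher and 5 were lower, beside 22.2% and 24.0% of measured genes. That rule depends on abundance as well as on the ratio: *Nr5a2* counted as higher at 102.9% of the WT level. The measured genes reach down to 1 CPM, where intervals are wide, so these shares are not a like background. The same holds for the counts of intervals in the lists below.

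**Figure D1:**
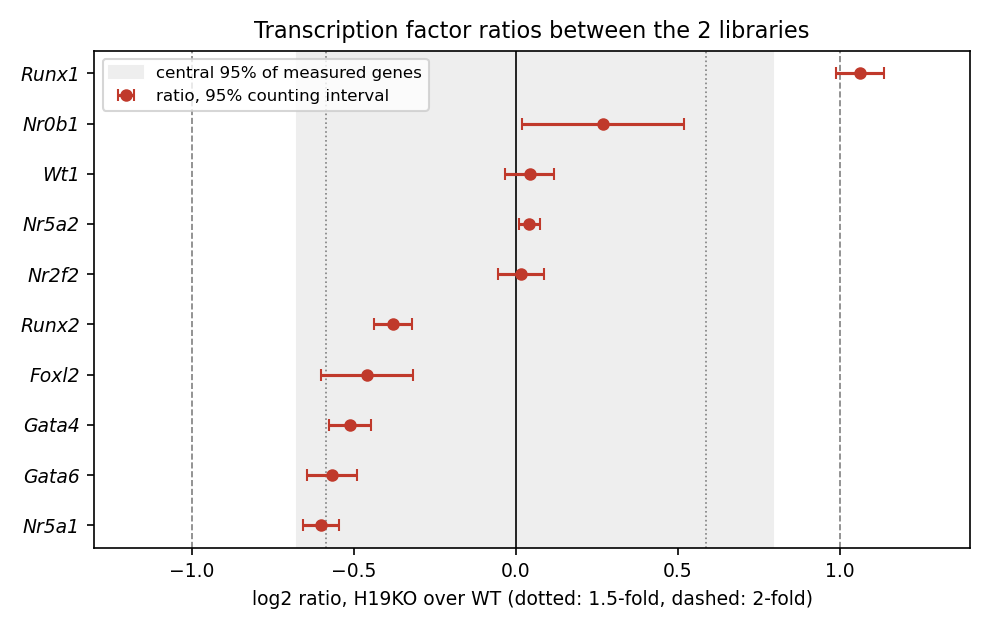
Log2 ratio of H19KO over WT (x axis) for each of the 10 factors (rows), with 95% counting intervals as bars; dotted lines mark 1.5-fold, dashed lines 2-fold and the grey band the central 95% of all measured genes. *Runx1* stands alone to the right at 1.06, and 5 factors lie together between -0.60 and -0.38.

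Compared per kilobase of annotated exon (RPKM, from the combined exons of each gene), the nuclear receptor *Nr5a2* was the most abundant of the factors in both libraries, at 114.7 RPKM in the H19KO library and 111.5 in the WT library. *Nr0b1* was the least abundant in both, at 7.10 and 5.90 RPKM in the H19KO and WT libraries. *Nr5a1* and *Gata4* were in places 2 and 3 in both. In the H19KO library the order below them was *Wt1*, *Runx2*, *Nr2f2*, *Runx1*, *Gata6* and *Foxl2*, and in the WT library *Runx2*, *Gata6*, *Wt1*, *Nr2f2*, *Foxl2* and *Runx1*. *Runx1* was thus in place 7 in the H19KO library and in place 9 in the WT library, and *Gata6* in places 8 and 5. Neighbours with overlapping counting intervals were *Wt1* with *Runx2* and *Nr2f2* with *Runx1*, both in the H19KO library, and there was no such pair in the WT library.

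**Figure D2:**
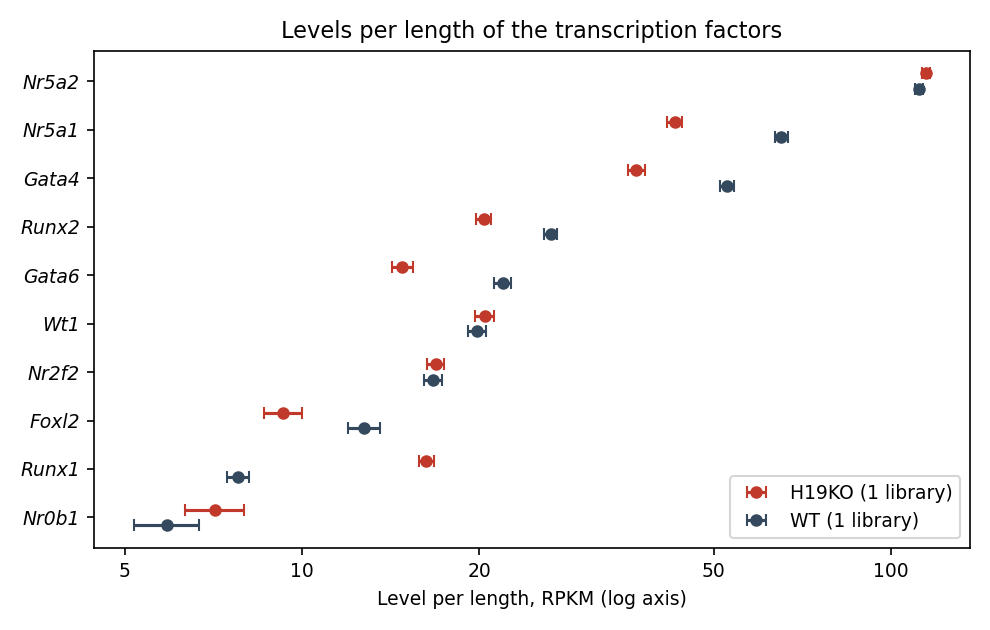
Level per length of each factor in RPKM (log axis) in the H19KO library (red, upper point of each pair) and the WT library (dark, lower point), with 95% counting intervals; rows follow the WT order. *Nr5a2* lies above 111 RPKM in both libraries, and *Runx1* is at 16.3 RPKM in H19KO and 7.79 in WT.

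*Runx1* encodes a Runt-domain protein that marks granulosa cells of the fetal ovary and returns in granulosa cells near ovulation. It lies on mm10 chromosome 16 (92601466 to 92826149, minus strand). It had 4519 counts, or 195.4 CPM, in the H19KO library, and 2178 counts, or 93.7 CPM, in the WT library. The log2 ratio was 1.06 (0.99 to 1.14), whose lower bound just misses 2-fold, and 178 of the 13928 measured genes, or 1.28%, had a higher ratio. *Runx2*, its relative in luteinising granulosa cells (chromosome 17, 44495987 to 44814797, minus strand), went the other way. It had 4158 counts, or 179.8 CPM, in the H19KO library and 5433 counts, or 233.7 CPM, in the WT library, a log2 ratio of -0.38 (-0.44 to -0.32). *Runx1* made up 52.1% (51.0 to 53.1, exact binomial) of the counts of the pair in the H19KO library and 28.6% (27.6 to 29.6) in the WT library. This share does not depend on how the libraries are scaled, though it is not corrected for gene length. Summed, the pair had 375.2 CPM in the H19KO library and 327.3 in the WT library.

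The *Runx1* row combines transcripts from its distal and its proximal start, which the table does not separate. Upstream sequence from RefSeq (GRCm38.p6, the mm10 build) was available for 6 of the 10 factors, in 8 windows of 250 bases before an annotated start, and the windows of this pair are shown because its members differed in opposite directions. The RUNX motif TGTGGT was searched on both strands, as were the GATA motif AGATAA and the NR5A motif CAAGGTCA, and the RUNX motif was present in 14.0% of all 32851 such windows. Neither *Runx1* window held any of these motifs. The *Runx2* window held 1 RUNX match, on the opposite strand and beginning 80 bases before the start, inside the first exon that GENCODE annotates, so it is printed as a site of 30 bases. Bases of annotated exons are otherwise left out, sequences read 5′ to 3′ on the gene's strand, and capitals mark a motif. A match describes letters only and shows no binding.
Runx1 distal start, chr16:92826150-92826324, minus strand: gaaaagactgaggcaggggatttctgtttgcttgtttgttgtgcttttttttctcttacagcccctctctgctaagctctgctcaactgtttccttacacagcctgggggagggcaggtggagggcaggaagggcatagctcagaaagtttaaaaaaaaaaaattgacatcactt
Runx1 proximal start, chr16:92697330-92697579, minus strand: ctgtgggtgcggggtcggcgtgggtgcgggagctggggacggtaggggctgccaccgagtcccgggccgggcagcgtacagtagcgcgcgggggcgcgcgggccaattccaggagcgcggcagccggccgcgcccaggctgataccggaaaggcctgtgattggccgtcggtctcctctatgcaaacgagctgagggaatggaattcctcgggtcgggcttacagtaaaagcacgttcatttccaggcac
Runx2 start, chr17:44814798-44814877, minus strand: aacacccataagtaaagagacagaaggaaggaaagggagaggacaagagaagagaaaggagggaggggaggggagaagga
Runx2 RUNX match, chr17:44814690-44814719, minus strand: gtgaggtcacaaACCACAtgattctgtctc

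Of the 5 genes listed as relatives or cofactors of the RUNX factors, 2 had an interval below 0 and 3 spanned it. *Cbfb*, whose protein is the partner that RUNX proteins need to bind DNA well, had 175.9 CPM in the H19KO library and 170.0 in the WT library, a log2 ratio of 0.05 (-0.01 to 0.11). *Runx3* had only 32 counts in the H19KO library and 30 in the WT library. Of the corepressor genes among the 5, *Cbfa2t3* had 550 counts in the H19KO library and 836 in the WT library, a log2 ratio of -0.60 (-0.75 to -0.44). *Runx1t1* was at -0.27 (-0.46 to -0.09) and *Cbfa2t2* at -0.08 (-0.20 to 0.04). These 5 genes were named here for their role, after their values were seen. *Runx1* is also transcribed in leukocytes and endothelium. The 12 leukocyte markers summed to 448.5 CPM in the H19KO library and 359.2 in the WT library, with 8 of the 10 measured markers having an interval above 0 and 1 below it. The 8 endothelial markers summed to 586.0 CPM in the H19KO library and 675.9 in the WT library, with 1 interval above 0 and 5 below. The 10 surface epithelium markers in the table summed to 245.3 CPM in the H19KO library and 211.2 in the WT library, with 6 intervals above 0 and 1 below. No marker of these 3 lists was at 0, and their part in the *Runx1* difference was not tested. In whole tissue, moreover, more or fewer cells of a type and more or less RNA per cell cannot be told apart, which holds for every difference described.

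Genes studied with RUNX factors around ovulation were divided. Their list, like the others, was drawn up with earlier results of these data known, so its median is not an independent readout of *Runx1*. Of the 12 listed, 11 were measured, 7 with an interval above 0 and 4 below it, and their median log2 ratio was 0.66. That median rests in part on genes of low count: it was 0.43 at a minimum of 5 CPM and also with no minimum, and the mean was 0.44. Over all windows the RUNX motif was in 14.0%, a share per window and not per gene. Among the 11 listed genes with a window (13 windows in all), 4 had it. Of these 4, *Fabp6* was not measured and *Lhcgr* was lower, at a log2 ratio of -0.51. The others were higher at low counts, *Hapln1* with 60 counts in the H19KO library and 28 in the WT library and *Ptgs2* with 46 and 18. *Abcb1b*, a drug efflux transporter, had 22412 counts in the H19KO library and 7842 in the WT library, a log2 ratio of 1.52 (1.49 to 1.56). *Adamts1*, a protease that cleaves the matrix of the ovulating follicle, had 4500 counts in the H19KO library and 2069 in the WT library, a log2 ratio of 1.13 (1.05 to 1.20). These were the only 2 listed genes beyond 2-fold. *Mt1*, a metallothionein that binds zinc, had a log2 ratio of 0.88 (0.83 to 0.92). *Wnt4*, a signalling protein of ovarian development, was the remaining gene higher beyond 1.5-fold, at 0.66 (0.59 to 0.73), and is named outside the rule to complete the count. On the lower side, *Sfrp4*, a secreted Wnt modulator of luteal cells, had 23525 counts in the H19KO library and 36943 in the WT library, a log2 ratio of -0.64 (-0.67 to -0.62). The prolactin receptor gene *Prlr* had a log2 ratio of -0.18 (-0.20 to -0.16).

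*Nr5a1* encodes steroidogenic factor 1, the nuclear receptor that drives steroid enzyme genes, and had the lowest ratio of the 10. It lies on chromosome 2 (38692656 to 38714542, minus strand). It had 4213 counts, or 182.2 CPM, in the H19KO library and 6428 counts, or 276.4 CPM, in the WT library, a log2 ratio of -0.60 (-0.66 to -0.55). Only 469 measured genes, or 3.37%, had a lower ratio. *Nr5a2* (chromosome 1, 136842571 to 136960448, minus strand) encodes the related receptor LRH-1, which granulosa cells need for ovulation and luteal function. It had 15652 counts, or 676.9 CPM, in the H19KO library and 15291 counts, or 657.6 CPM, in the WT library. The interval of its log2 ratio of 0.04 (0.01 to 0.07) narrowly left out 0. *Nr5a1* made up 21.2% (20.6 to 21.8) of the counts of the pair in the H19KO library and 29.6% (29.0 to 30.2) in the WT library.

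*Nr0b1*, on the X chromosome (86191764 to 86195947, plus strand), encodes DAX1, which binds NR5A receptors and represses them. It had 297 counts, or 12.8 CPM, in the H19KO library and 248 counts, or 10.7 CPM, in the WT library. The log2 ratio of 0.27 (0.02 to 0.52) has the widest interval of the 10 and 14.1% of measured genes had a higher one. Against the receptors that DAX1 binds, *Nr0b1* was 1.47% (1.31 to 1.65) of the summed counts of *Nr0b1*, *Nr5a1* and *Nr5a2* in the H19KO library. In the WT library it was 1.13% (0.993 to 1.28). The lower *Nr5a1* counts of the H19KO library raise this share too, and the interval of the *Nr0b1* ratio itself only narrowly left out 0. *Nr5a2* and *Nr0b1* each had a window with a motif, shown here, as did *Runx2*. The *Nr0b1* window had 1 RUNX match, beginning 205 bases before the start, and the distal *Nr5a2* window had 2 GATA matches on the opposite strand, beginning 217 and 200 bases before the start, where 9.99% of all windows held that motif. The NR5A motif, present in 1.33% of windows, was in none of the 8. The windows without a match were both of *Runx1*, the proximal one of *Nr5a2*, and those of *Foxl2* and *Nr2f2*. All 250 bases of the *Foxl2* and *Nr2f2* windows lie in exons that GENCODE annotates for the same or another gene.
Nr0b1 start, chrX:86191525-86191763, plus strand: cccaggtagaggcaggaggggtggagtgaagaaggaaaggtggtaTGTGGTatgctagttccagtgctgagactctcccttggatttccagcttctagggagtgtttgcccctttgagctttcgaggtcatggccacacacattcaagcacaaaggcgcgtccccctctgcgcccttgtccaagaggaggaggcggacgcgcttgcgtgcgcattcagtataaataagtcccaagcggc
Nr5a2 distal start, chr1:136960449-136960698, minus strand: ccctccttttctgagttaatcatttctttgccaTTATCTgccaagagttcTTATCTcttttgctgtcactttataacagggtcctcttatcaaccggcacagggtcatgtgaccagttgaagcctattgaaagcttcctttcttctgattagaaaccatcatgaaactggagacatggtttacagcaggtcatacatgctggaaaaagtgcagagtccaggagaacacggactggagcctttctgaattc

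*Gata4* and *Gata6* were lower in the H19KO library by nearly the same factor. *Gata4* (chromosome 14, 63198922 to 63271692, minus strand) had 3336 counts, or 144.3 CPM, in the H19KO library and 4783 counts, or 205.7 CPM, in the WT library, a log2 ratio of -0.51 (-0.58 to -0.45). *Gata6* (chromosome 18, 11052064 to 11085635, plus strand) had 2227 counts, or 96.3 CPM, in the H19KO library and 3318 counts, or 142.7 CPM, in the WT library, a log2 ratio of -0.57 (-0.65 to -0.49). The proteins bind the same GATA motif and can stand in for each other in granulosa and theca cells. The share of *Gata4* in the counts of the pair was 60.0% (58.7 to 61.3) in the H19KO library and 59.0% (58.0 to 60.1) in the WT library, with overlapping intervals. The intervals of the other pairs of related factors did not overlap, but at such counts they are narrow and cover counting error only. How often other pairs of genes would overlap was not computed. Their cofactors, which are also called FOG proteins, were named for their role after their values were seen: *Zfpm1* had a log2 ratio of -0.52 (-0.70 to -0.35) and *Zfpm2* 0.28 (0.14 to 0.43).

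**Figure D3:**
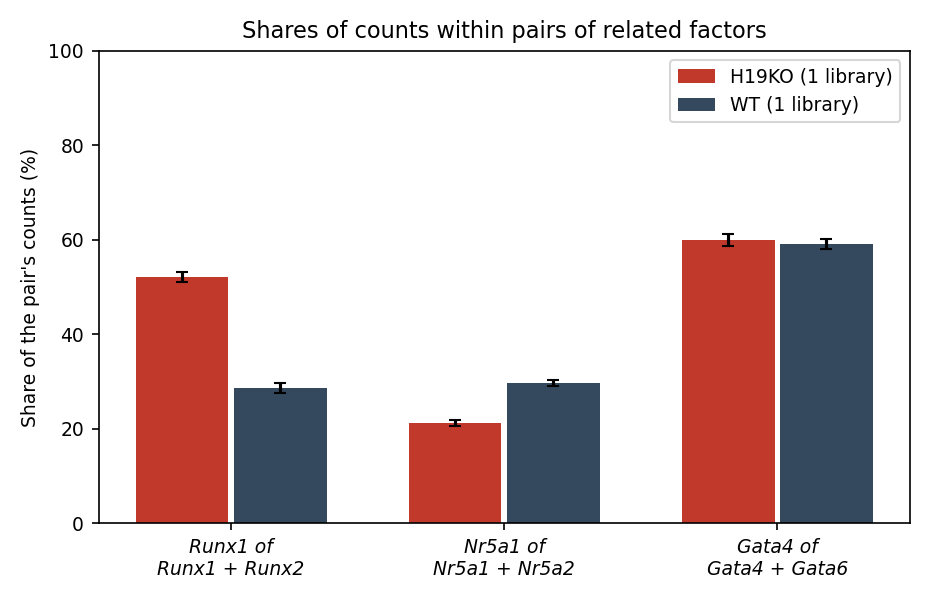
Share of the summed counts (%, y axis) taken by the first gene of each of 3 related pairs, in the H19KO library (red, left) and the WT library (dark, right), with exact 95% binomial intervals; 1 library per genotype. *Runx1* takes 52.1% of its pair in H19KO and 28.6% in WT, whereas *Gata4* takes 60.0% and 59.0%.

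*Foxl2* (chromosome 9, 98955288 to 98958543, plus strand) had 699 counts, or 30.2 CPM, in the H19KO library and 966 counts, or 41.5 CPM, in the WT library. Its log2 ratio was -0.46 (-0.60 to -0.32), with 5.92% of measured genes lower. An antisense gene, *Foxl2os*, overlaps it and had 1737 counts in the H19KO library and 1849 in the WT library. Since the strand setting of the counting is not given in the sources used here, reads of the 2 genes may have been mixed. Genes on the opposite strand also overlap *Runx1*, *Runx2*, *Nr5a1*, *Nr2f2* and *Gata6*, and of those in the table the largest, *Supt3* across from *Runx2*, had 349 counts in the H19KO library and 363 in the WT library.

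*Wt1* and *Nr2f2* did not differ beyond counting error. *Wt1* (chromosome 2, 105126529 to 105173616, plus strand), a zinc finger factor of the early gonad that persists in granulosa cells of small follicles and in surface epithelium, had 2925 counts, or 126.5 CPM, in the H19KO library and 2856 counts, or 122.8 CPM, in the WT library. Its log2 ratio was 0.04 (-0.03 to 0.12). *Nr2f2* (chromosome 7, 70351944 to 70366735, minus strand) encodes COUP-TFII, an orphan nuclear receptor of stromal and theca cells, and had 3364 counts, or 145.5 CPM, in the H19KO library and 3346 counts, or 143.9 CPM, in the WT library. Its log2 ratio was 0.02 (-0.05 to 0.09). Thus the bounds of both intervals lie within 0.12 log2 units of 0, a limit that holds for counting error alone.

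**Figure D4:**
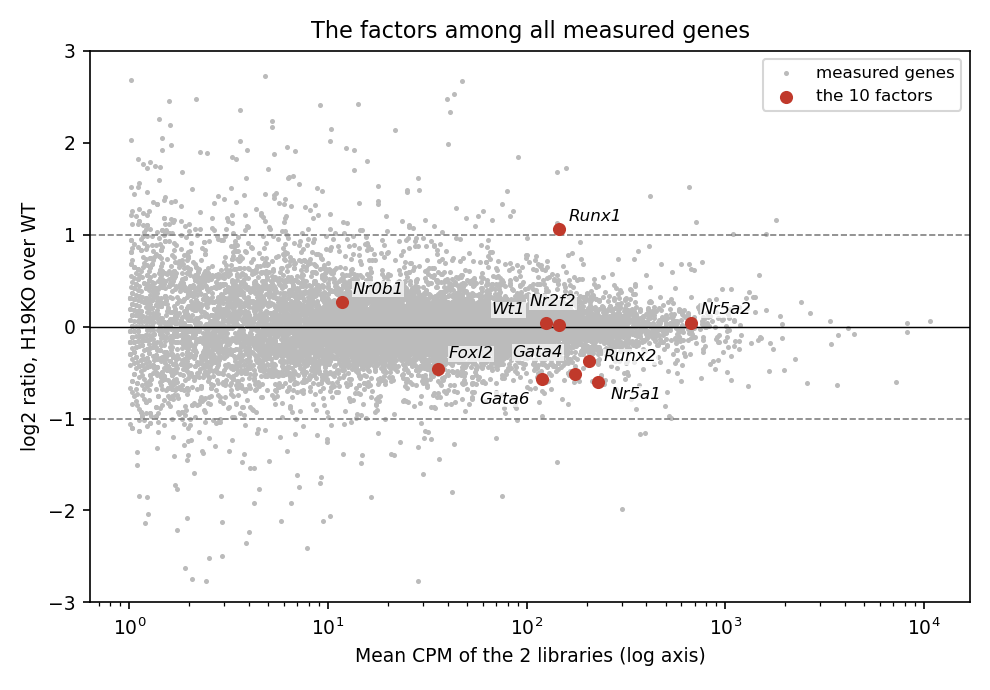
Mean CPM of the libraries (x axis, log scale) against the log2 ratio of H19KO over WT (y axis) for the 13928 measured genes (grey) and the 10 factors (red); dashed lines mark 2-fold, and 14 genes lie beyond the plotted range of ratios. *Runx1* lies above most genes of like abundance, and *Nr5a1*, *Gata4* and *Gata6* along its lower edge.

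Markers of the cells that carry these factors also differed. Of the 15 granulosa markers, all measured, 12 had an interval below 0 and 1 above it, with a median log2 ratio of -0.35. Summed, they had 4268 CPM in the H19KO library and 5622 in the WT library, a ratio of 0.759. *Gja1* weighs most in that sum, with 1966 CPM in the H19KO library and 2502 in the WT library. *Inha* had 847.0 and 1194 CPM in the H19KO and WT libraries. The 5 lower factors were at 65.9 to 77.0% of the WT level. *Nr5a2*, *Wt1* and *Runx1*, also factors of granulosa cells, were at 102.9, 103.0 and 208.6% of it. The gap junction gene *Gja1*, the most abundant marker, was at -0.35 (-0.37 to -0.33) on the log2 scale. *Inha*, which encodes the alpha chain of the inhibins, was at -0.50 (-0.52 to -0.47), and the hedgehog ligand gene *Ihh* at -1.23 (-1.39 to -1.07). Of the 8 measured theca markers 5 were below 0 and 2 above, and the sum of the theca markers was 4171 CPM in the H19KO library and 4038 in the WT library. Most of that sum came from the 2 higher markers. *Aldh1a1* had 2620 CPM in the H19KO library and 2170 in the WT library, and *Mgarp* 732.7 and 458.8. The lowest, *Cyp17a1*, had a log2 ratio of -1.98. Of the 9 luteal markers 7 were below 0 and 2 above, with a median log2 ratio of -0.18. Their sum was 17634 CPM in the H19KO library and 19049 in the WT library. The lowest ratio was that of the progesterone-degrading enzyme *Akr1c18*, at -0.94. The most abundant, *Hsd3b1* and *Cyp11a1*, were at -0.06 and -0.02, and the 2 higher ones, *Parm1* and *Star*, at 0.35 and 0.11. Stromal markers were higher, with 7 of 8 intervals above 0, none below, and a sum of 3966 CPM in the H19KO library and 2835 in the WT library. The part of cell composition in the ratios of the factors was not tested.

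Of the genes listed as GATA or FOXL2 targets most were lower in the H19KO library. The target lists do not separate genes that a factor activates from genes that it represses. The direction of a target therefore cannot be matched to that of its factor here. Of the 10 genes listed as GATA targets 8 had an interval below 0 and 1 above it, with a median log2 ratio of -0.51. The GATA motif was in the window of 1 of the 6 of them with a window (8 windows in all), *Hsd3b1*. Over all windows it was in 9.99%, a share per window and not per gene. *Inhbb*, an activin and inhibin subunit, had 5726 counts in the H19KO library and 10739 in the WT library, a log2 ratio of -0.90 (-0.95 to -0.85). Among the 8 genes listed as FOXL2 targets 6 were below 0 and 1 above, with a median of -0.18. Aromatase, *Cyp19a1*, which is in the GATA, FOXL2 and NR5A lists and makes oestrogens, had 345 counts in the H19KO library and 1052 in the WT library, a log2 ratio of -1.60 (-1.78 to -1.42). These lists share genes, among them *Star*, *Amh* and, for GATA and FOXL2, *Inhbb* and *Ccnd2*, so their counts are not separate observations. Nor are they separate from the markers above. *Inha*, *Inhbb*, *Amh*, *Cyp19a1*, *Fshr* and *Hsd17b1* are both GATA targets and granulosa markers here. *Star*, *Hsd3b1*, *Scarb1* and *Cyp11a1* are both NR5A targets and luteal markers. *Abcb1b*, *Mt1*, *Hsd3b1* and *Cyp11b1* have close relatives in the genome, so how reads were divided between them and those copies is uncertain.

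The NR5A targets spanned a wide range of ratios in both directions. Of 16 listed, 13 were measured, 9 with an interval below 0 and 3 above it. Their median log2 ratio was -0.09 but their mean was 0.045. The highest of them was *Cyp11b1*, the enzyme of corticosterone synthesis, with 945 counts in the H19KO library and 13 in the WT library, a log2 ratio of 6.14 (5.41 to 7.11). The androgen-making enzyme *Cyp17a1* was at the other end, with 2834 counts in the H19KO library and 11243 in the WT library, a log2 ratio of -1.98 (-2.04 to -1.92). The abundant early steps of steroid synthesis lay near 0. On the log2 scale *Cyp11a1*, which cuts the cholesterol side chain, was at -0.02 (-0.03 to -0.01), *Hsd3b1*, which makes progesterone, at -0.06 (-0.07 to -0.05), and *Star*, which delivers cholesterol to the mitochondrion, at 0.11 (0.09 to 0.13). Over all windows the motif CAAGGTCA was in 1.33%, a share per window and not per gene. Among the 9 listed genes with a window (12 windows in all), 1 had it. This was the AMH receptor gene *Amhr2*, whose log2 ratio was 0.06 (-0.05 to 0.18).

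**Figure D5:**
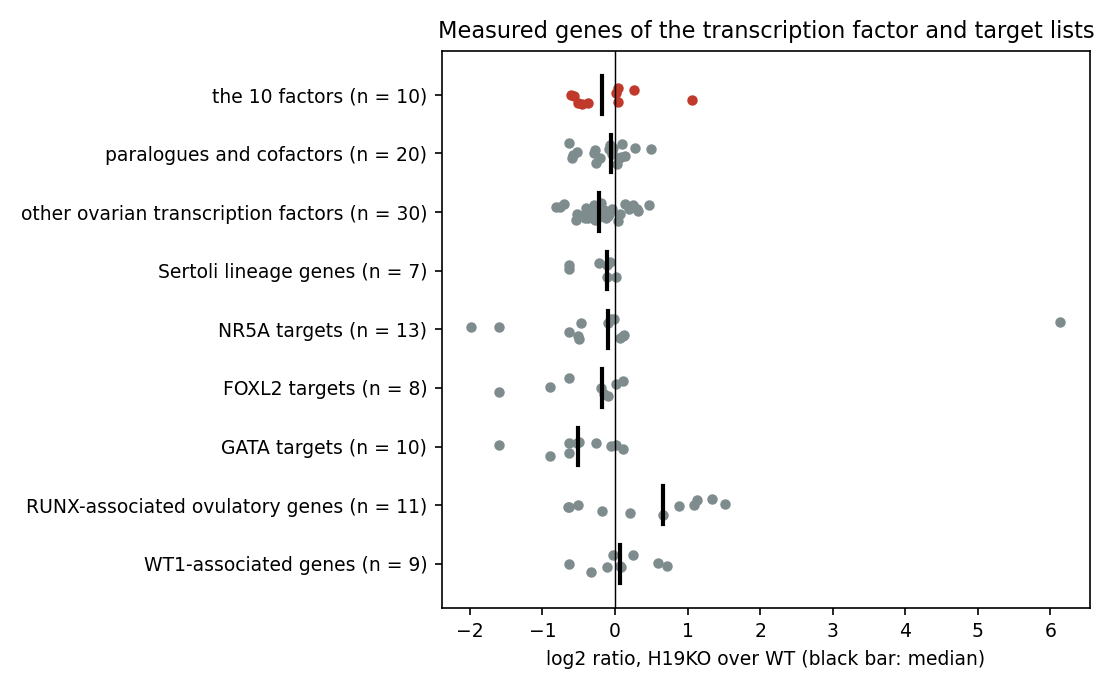
Log2 ratio of H19KO over WT (x axis) of every measured gene in the lists of relatives, other factors and targets (rows, with number measured). Black bars mark medians, and the lists were drawn up with earlier results of these data known. The median is -0.18 for the 10 factors, -0.22 for other ovarian transcription factors and -0.51 for GATA targets, and 0.66 for the RUNX-associated genes (0.43 at a minimum of 5 CPM), and *Cyp11b1* is the single point beyond 6.

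Other transcription factors of the ovary were divided too, with more of them lower. Of 31 listed, 30 were measured, 18 with an interval below 0 and 5 above it, with a median log2 ratio of -0.22; none lay beyond 2-fold. *Foxo1*, the forkhead factor of growing follicles, had 404.4 CPM in the H19KO library and 508.2 in the WT library, a log2 ratio of -0.33 (-0.37 to -0.29). *Cited2*, a coregulator that works with WT1 on *Nr5a1* in the early gonad, had 406.8 CPM in the H19KO library and 294.9 in the WT library, a log2 ratio of 0.46 (0.42 to 0.51). The 2 genes lower beyond 1.5-fold were the hormone-inducible receptor *Nr4a1*, at -0.82 (-0.91 to -0.73), and the homeobox gene *Irx3* of granulosa cells, at -0.76 (-0.92 to -0.60). Of 20 measured relatives and cofactors 3 had an interval above 0 and 8 below it, with a median of -0.05 and none beyond 1.5-fold. The corepressor *Ncor1* was at -0.04 (-0.07 to -0.01) and the corepressor *Nrip1*, which is needed for ovulation, at -0.26 (-0.31 to -0.20).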

How the data were processed

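Per the labels' protocols, stranded paired-end libraries were made after depletion of ribosomal RNA. The authors deposited whole-number counts per gene symbol. The submitters' processing notes name mm10 and, with no role for any of them, DESeq2 1.0.0, Cufflinks 2.2.1 and STAR 2.5.0a. How reads were counted, with which annotation and strand setting, is not given in the sources used here. The lowest whole number that did not occur was 937 in the H19KO column and 527 in the WT column, and gaps at low values, which rescaling upwards would leave, were not seen. Of the 24421 rows, 27 carried dates in place of symbols and stayed in the totals.

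Libraries were scaled by TMM (edgeR 4.0.16), and 0.5 was added to scaled counts for log2 ratios. Exact conditional binomial (Clopper-Pearson) 95% intervals cover counting error only. At 1 library per genotype a fixed rule of size, the whole interval beyond 2-fold or 1.5-fold at a mean of at least 1 CPM, stood in for a test. Exon lengths and coordinates came from GENCODE M21. Scripts were tested on simulated data (Python 3.11.15, scipy 1.17.1, R 4.3.3).

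Members, lists and rules were chosen with earlier results of these data known. Named genes were the 10 factors, H19, and from each list the 2 most abundant measured genes and up to 4 beyond 1.5-fold (up to 2 for markers, of which not all are given). Alternatives were other scalings (DESeq2 1.42.0 among them), 5 added to each count, other minimums, the point ratio, and the mean of a list.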

Additional observations from a re-analysis of the deposited data

How the results depend on the processing

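All 40 ratios of the 10 factors under the 3 other scalings and with 5 added to each count stayed within the factor's counting interval; *Runx1* ranged from 1.05 to 1.07 and *Nr5a1* from -0.61 to -0.59. Under each scaling 3 factors lay above 0 and 5 below. By the point ratio or the limit of 1.5-fold, 1 factor, *Runx1*, was called higher. Over all measured genes, 85 were higher and 54 lower beyond 2-fold, against 206 and 123 by the point ratio, 251 and 168 at 1.5-fold, and 34 lower at a minimum of 5 CPM, since fewer genes were then tested. Of 108 list medians 99 stayed between the median lower bound and the median upper bound of the intervals of the list's genes. That span is not a counting interval of the median itself. With no low count filter or a minimum of 5 CPM, the RUNX-associated genes had 0.43, and with no filter the theca markers -0.14, since other genes are then counted. Oviduct and adrenal markers, with 2 measured genes and a median of 1.20, had 0.38 at 5 CPM and 1.95 when the 10 most abundant genes were left out of the library sizes, as *Akr1b7* then reached 1 CPM too. By the mean, the NR5A targets had 0.045, FOXL2 targets -0.43, granulosa markers -0.46 and luteal markers -0.26. Adding 5 has no bearing on calls by interval. No paired analysis was possible because both genotypes are represented by 1 library. Depth limits *Nr0b1* most, whose interval spans 0.50 log2 units.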

Other observations

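Genes of the Sertoli lineage, a fate that FOXL2 keeps granulosa cells from, summed to 53.6 CPM in the H19KO library and 65.8 in the WT library. The most abundant, *Dhh*, had 12.2 and 19.1 CPM in the H19KO and WT libraries, beside 12.8 and 10.7 for the factor *Nr0b1*. Of 10 listed, 7 were measured, and none had an interval above 0 while 2 lay below it, with a median log2 ratio of -0.11. *Dhh*, the hedgehog ligand of Sertoli and granulosa cells, had 283 counts in the H19KO library and 443 in the WT library, a log2 ratio of -0.64 (-0.86 to -0.42), and *Aard* had 313 and 339 counts in the H19KO and WT libraries. *Sox9*, the central testis-determining gene, had 96 counts in each library, and *Sry* was at 0 in both, which allows 0.130 CPM in the H19KO library and 0.129 in the WT library; these 2 are named for their role, after their values were seen.

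Genes studied as WT1 targets lay on both sides of 0. Of 10 listed, 9 were measured, 3 with an interval above 0, 3 below and 3 spanning it, with a median log2 ratio of 0.06. *Bmpr2*, a BMP receptor, had a log2 ratio of -0.11 (-0.14 to -0.08) and *Sfrp1*, a secreted Wnt antagonist, 0.59 (0.53 to 0.66). All 10 oocyte markers were measured, 8 with an interval below 0 and none above, with a sum of 343.0 CPM in the H19KO library and 434.9 in the WT library. Of 6 smooth muscle markers 5 lay above 0 and 1 below, with a sum of 1747 CPM in the H19KO library and 1414 in the WT library. The 8 markers of oviduct and adrenal, tissues near the ovary, gave 2 measured genes, both with an interval above 0: the oviduct gene *Ovgp1* had 134 counts in the H19KO library and 33 in the WT library, and the epithelial gene *Epcam* 589 and 456 in the H19KO and WT libraries. The other oviduct markers did not follow, *Foxj1* with 3 counts in the H19KO library and 11 in the WT library and *Pax8* with 9 in each. The adrenal markers were at low counts, *Akr1b7* with 36 counts in the H19KO library and 9 in the WT library, *Cyp21a1* with 6 in H19KO and 2 in WT, *Mc2r* with 1 in H19KO and 3 in WT, and *Cyp11b2* with 1 in H19KO and 0 in WT.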
